A study of Sus scrofa with 6 samples.

Results

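The genes described here are the heat shock proteins (HSP) and the J-domain co-chaperones (DNAJ) of pig embryonic stem cells. They were taken as the rows of the deposited expression table whose symbol starts with HSP or DNAJ and whose counts sum to at least 60 over the 6 libraries, which gave 57 genes (23 HSP and 34 DNAJ) of 31908 in the table. A further 7 such symbols fell below the minimum. HSPA1L was the gene just inside it with 69 counts, and DNAJC12 the gene just outside with 49. HSPB9 had 12 counts, HSPB7 had 4 and DNAJC5B had 1, while HSPB3, DNAJB8 and DNAJC5G had 0, which allows up to 3 counts over the 6 libraries or 0.0231 CPM, as counts scaled to library size are given here. Poly(A) RNA came from lines PA_1 and PA_3, derived from parthenogenetic embryos (an egg activated without sperm), and from line IVF_1, derived from an embryo fertilised in vitro. All 3 are labelled wild type and were kept in the same serum-free medium, called FIW. Each line gave 2 libraries, and the labels do not say whether these come from separate cultures, so p-values measure the spread between libraries and may be technical. With 1 fertilised line, each comparison is one between lines, not between kinds of embryo.

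HSP70 proteins bind exposed stretches of unfolded polypeptides and release them in a cycle driven by ATP. J-domain proteins deliver clients and speed ATP hydrolysis, nucleotide exchange factors such as HSPH1 reset the cycle, and HSP90 completes the maturation of kinases and receptors. The cytosol, the mitochondrion and the endoplasmic reticulum each hold their own set: HSF1, the heat shock transcription factor, drives the cytosolic one under stress, and the unfolded protein response drives that of the endoplasmic reticulum. By known location of the encoded protein, 34 of the 57 genes were placed in the cytosol and nucleus, 8 in the mitochondrion and 12 in the endoplasmic reticulum, and 3 in none of these.

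Library totals ran from 15248306 to 28575817 counts. Genes of the mitochondrial genome took 7.97% and 9.65% of all counts in PA_1 and 12.2% in each library of PA_3, against 7.67% and 8.29% in IVF_1. The 11 pluripotent cell markers found in the table summed to between 4071 and 4302 CPM in the PA libraries and to 6140 and 6103 CPM in IVF_1, and none was at 0. The 8 fibroblast markers summed to between 55.4 and 65.4 CPM across the 6 libraries, with 0 to 3 of them at 0 counts. The 4 trophoblast markers summed to between 11.3 and 12.1 CPM in the PA libraries, against 15.7 and 14.5 CPM in IVF_1, and the 4 hypoblast markers to between 3.43 and 4.46 CPM, against 9.49 and 8.97 CPM. The summed fibroblast markers overlapped between the lines, and the mitochondrial genome share overlapped between PA_1 and IVF_1 and was highest in PA_3. Single markers moved apart within such sums in the test between lines described below. Of the 5 fibroblast markers tested, 3 were lower and 1 higher in PA_3 than in IVF_1, with 0 called in PA_1. Between the PA lines, 3 were higher and 1 lower in PA_1. Of the 11 pluripotent markers, 6 (54.5%) were lower and 2 (18.2%) higher in PA_1 than in IVF_1, and 6 (54.5%) lower and 3 (27.3%) higher in PA_3. SOX2 and SALL4, also on that list, were not matched. Of the 4 hypoblast markers, 3 were lower in PA_1 and 2 in PA_3, and of 3 trophoblast markers tested, 1 was lower in each. Of all genes tested, 16.1% were lower and 15.3% higher in PA_1, and 26.2% and 25.9% in PA_3, against IVF_1. In PA_1 against PA_3, 17.8% were higher and 19.0% lower. The pluripotent, trophoblast and hypoblast sums of the PA libraries lay below those of IVF_1, and the part of these differences in the results was not tested. In bulk RNA, fewer cells of a type and less RNA per cell cannot be told apart.

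Levels of different genes were compared as TPM, the authors' value scaled by gene length and library. HSP90AB1, the constitutive cytosolic HSP90, was the most abundant member at a mean of 3045 TPM over the 6 libraries and held 30.2% of the summed TPM of all members. HSPA8, the constitutive cytosolic HSP70, followed at 1625 TPM, then HSP90AA1, the more stress-responsive HSP90, at 861 TPM. HSPE1 and HSPD1, the mitochondrial co-chaperonin and chaperonin, stood at 667 and 407 TPM. These 5 genes held 65.6% of the summed TPM, 15 members averaged at least 100 TPM, and 3 averaged under 1 TPM. Those 3 were HSPA6, a stress-inducible HSP70 in human, HSPA1L, an HSP70 best known from testis, and DNAJC28.

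**Figure D1:**
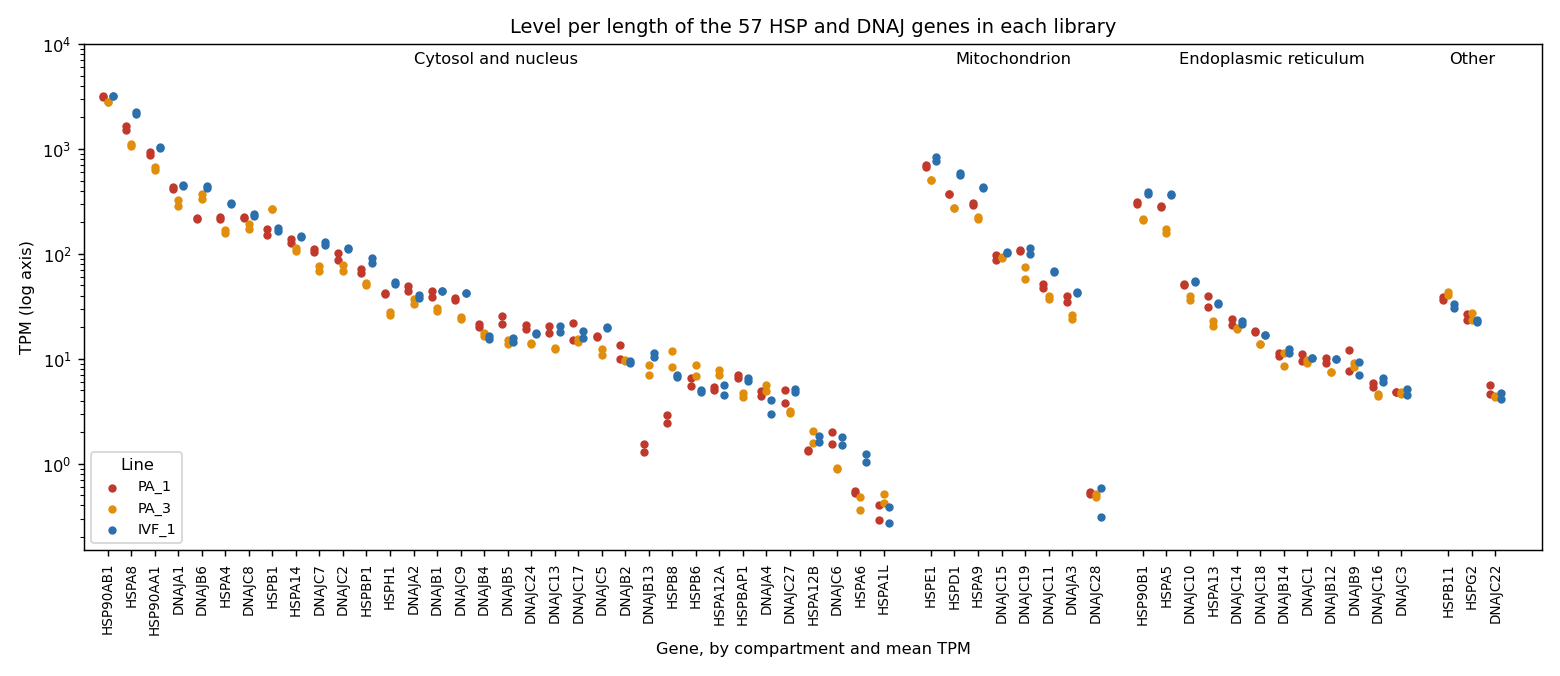
TPM on a log axis for each of the 57 genes, with 1 point per library and the lines PA_1, PA_3 and IVF_1 side by side. HSP90AB1 led at a mean of 3045 TPM, and the highest mitochondrial and endoplasmic reticulum genes (HSPE1, HSPD1, HSPA9, HSP90B1, HSPA5) stood higher in IVF_1 than in either PA line.

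Between lines, genes were compared as CPM after TMM scaling and tested with edgeR's quasi-likelihood test, with p-values adjusted by Benjamini-Hochberg over 15197 genes and a threshold of 0.05. All 57 members passed the low-count filter. In PA_1 against IVF_1, 17 members were lower and 2 were higher, which is 29.8% and 3.51% of them, where 16.1% of all genes tested were lower and 15.3% higher. In PA_3 against IVF_1, 26 were lower and 8 higher, or 45.6% and 14.0%, where 26.2% of all genes were lower and 25.9% higher. In PA_1 against PA_3, 15 were higher and 10 lower, or 26.3% and 17.5%, where 17.8% of all genes were higher and 19.0% lower. The first 2 comparisons share the IVF_1 libraries. Leaving out 1 library leaves a single one in its line, so the spread then comes from the other lines alone. Calls gained or lost in such a run are given as a description only. Leaving out replicate 1 or replicate 2 of PA_1 raised the number higher in PA_1 against IVF_1 to 6 or 4, and leaving out replicate 1 of IVF_1 lowered it to 1. Without replicate 2 of PA_3, PA_1 against PA_3 kept 4 higher and 6 lower. The number higher in PA_3 against IVF_1 was 13 without replicate 1 of PA_1.

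Abundant members and abundant genes in general were set side by side. Of the 15 members averaging at least 100 TPM, 10 were lower and 0 higher in PA_1 against IVF_1, with a median log2 fold change of -0.29. Among all 1185 genes at that level, 29.3% were lower and 9.2% higher, with a median of -0.08. In PA_3 against IVF_1, 11 of the 15 were lower and 1 was higher, with a median of -0.40, where 36.8% of the 1185 genes were lower and 24.8% higher, with a median of -0.05. In PA_1 against PA_3, 6 of the 15 were higher and 2 lower, where 18.6% of the 1185 genes were higher and 23.8% lower. Of the other 42 members, 7 were lower and 2 higher in PA_1, and 15 lower and 7 higher in PA_3, against IVF_1. For PA_1 that is 16.7% lower and 4.76% higher, where all genes gave 16.1% and 15.3%, and for PA_3 35.7% and 16.7%, where all genes gave 26.2% and 25.9%.

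By compartment, the mitochondrial genes had the lowest medians of both PA lines against IVF_1 and the highest in PA_1 against PA_3, with no test between compartments. In PA_1 against IVF_1 the median log2 fold change was -0.10 for the 34 cytosolic genes, -0.23 for the 8 mitochondrial genes and -0.03 for the 12 endoplasmic reticulum genes, against 0.00 for all genes. In PA_3 against IVF_1 the medians were -0.25, -0.45 and -0.09 in that order, again against 0.00 for all genes. PA_1 against PA_3 gave 0.11, 0.14 and 0.04. In PA_1 against IVF_1, 4 of 8 mitochondrial (50%), 11 of 34 cytosolic (32.4%) and 2 of 12 endoplasmic reticulum genes (16.7%) were lower, against 16.1% of all genes. In PA_3 against IVF_1, 6 mitochondrial (75.0%), 16 cytosolic (47.1%) and 4 endoplasmic reticulum genes (33.3%) were lower, against 26.2% of all genes. Without replicate 2 of PA_1 the endoplasmic reticulum median was -0.151 in PA_1 against IVF_1 and -0.015 in PA_1 against PA_3, and the cytosolic median was -0.146 in PA_1 against IVF_1 and 0.047 in PA_1 against PA_3. Without replicate 2 of PA_3 the cytosolic median in PA_3 against IVF_1 was -0.131.

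**Figure D2:**
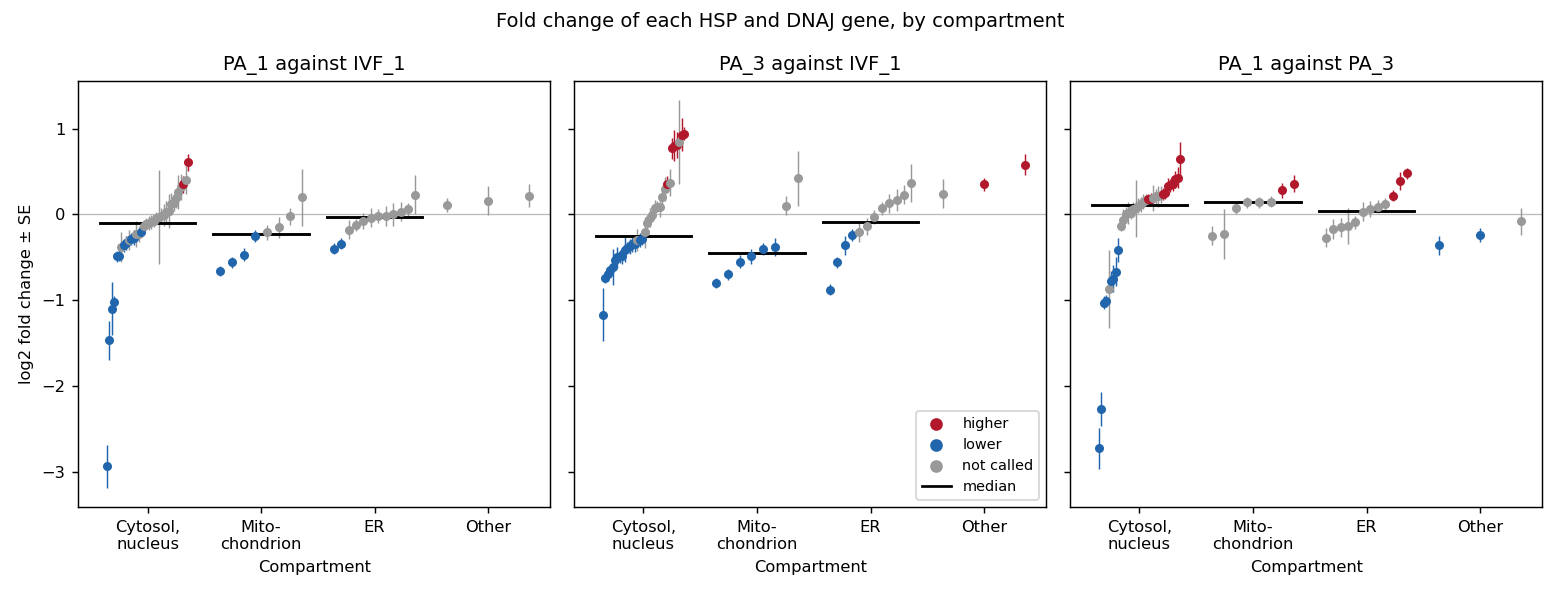
log2 fold change with its standard error for each gene, by compartment, in the 3 comparisons; red and blue points passed the threshold as higher and lower, grey points did not, and black lines are medians. The mitochondrial median was -0.23 in PA_1 against IVF_1 and -0.45 in PA_3 against IVF_1, and the widest spread was among cytosolic genes, from -2.94 to 0.61 in PA_1 against IVF_1.

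Summed over each compartment, member TPM was lower in both PA lines than in IVF_1. To set aside the mitochondrial genome, the sums are given as a percent of the TPM of all other genes. Mitochondrial chaperones held 0.203% and 0.211% in PA_1 and 0.182% and 0.183% in PA_3, against 0.268% and 0.261% in IVF_1. Endoplasmic reticulum chaperones held 0.0952% and 0.0978% in PA_1 and 0.0794% and 0.0744% in PA_3, against 0.112% and 0.117% in IVF_1. Cytosolic chaperones held 0.961% and 0.963% in PA_1 and 0.974% and 0.928% in PA_3, against 1.086% and 1.097% in IVF_1. In each compartment the PA libraries lay below the IVF_1 libraries without overlap, and PA_1 and PA_3 overlapped in the cytosolic share only. The sums rest mainly on a few abundant genes. In IVF_1, HSP90B1 and HSPA5 averaged 380 and 367 TPM of the 926 TPM of endoplasmic reticulum chaperones. HSPE1, HSPD1 and HSPA9 averaged 809, 577 and 429 TPM of the 2136 TPM of mitochondrial ones. The median log2 fold changes given above weigh each gene alike. An exact permutation test of a single share, with 2 libraries on each side, cannot give a p under 0.333.

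**Figure D3:**
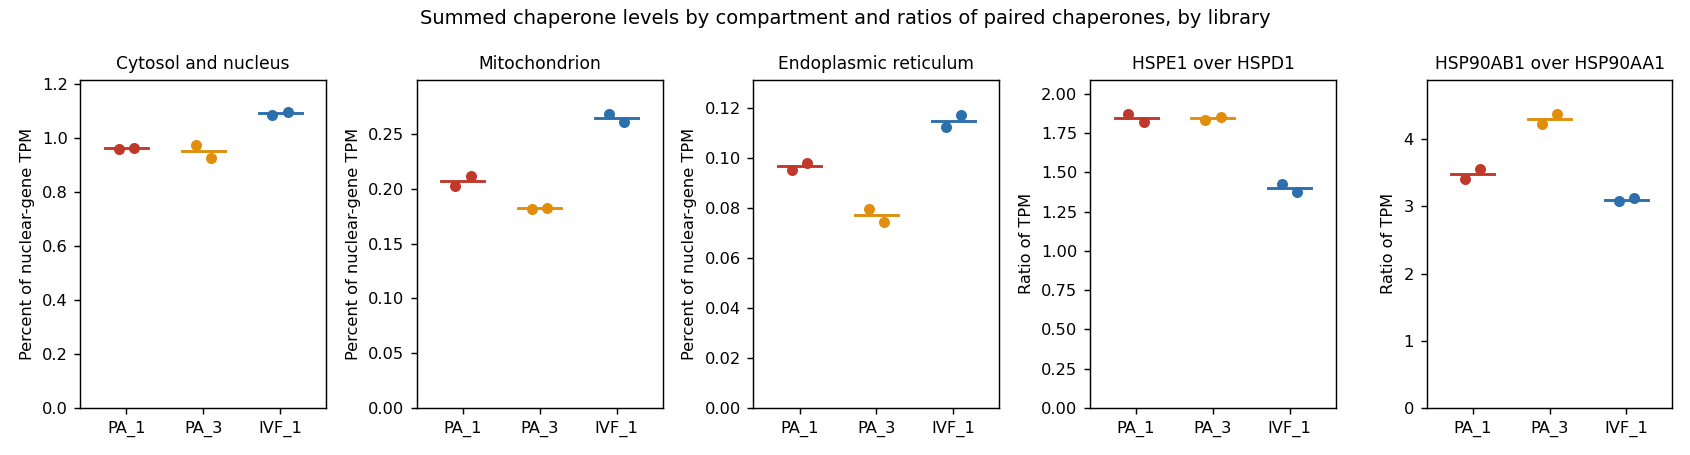
Left, the percent of nuclear-gene TPM held by chaperones of each compartment; right, the TPM ratio of HSPE1 to HSPD1 and of HSP90AB1 to HSP90AA1. Points are libraries and lines are means of 2. The mitochondrial share was 0.268% and 0.261% in IVF_1 and no higher than 0.211% in the PA lines.

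Among the cytosolic HSP70 and HSP90 genes, HSPA8 fell most in absolute terms. It stood at 1939 and 1839 CPM in PA_1, 1628 and 1549 CPM in PA_3, and 2710.5 and 2612 CPM in IVF_1, so that the 3 lines did not overlap. The log2 fold change was -0.49 (SE 0.065, adjusted p = 2.5e-05) in PA_1 against IVF_1, -0.74 (SE 0.065, adjusted p = 9.9e-08) in PA_3 against IVF_1 and 0.25 (SE 0.065, adjusted p = 0.0064) in PA_1 against PA_3. HSPH1, an HSP110 that serves HSP70 as nucleotide exchange factor, had 73.3 and 73.6 CPM in PA_1, 59.3 and 56.5 CPM in PA_3, and 92.5 and 95.5 CPM in IVF_1. Its 3 lines lay in the same order as those of HSPA8, with log2 fold changes of -0.36 and -0.70 against IVF_1 (adjusted p = 0.0013 and 7.2e-07) and 0.34 in PA_1 against PA_3 (adjusted p = 0.0014).

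The cytosolic HSP90 genes gave different calls. HSP90AA1 had 1574 and 1522 CPM in PA_1, 1394 and 1337 CPM in PA_3, and 1816 and 1752 CPM in IVF_1, with log2 fold changes of -0.20 in PA_1 and -0.39 in PA_3 against IVF_1 (adjusted p = 0.021 and 9.2e-05). HSP90AB1 passed the threshold in no comparison, at 4029 and 4053 CPM in PA_1, 4417 and 4398 CPM in PA_3, and 4207 and 4097 CPM in IVF_1. The TPM ratio of HSP90AB1 to HSP90AA1 within a library was 3.41 and 3.55 in PA_1 and 4.22 and 4.38 in PA_3, against 3.09 and 3.12 in IVF_1, without overlap between lines.

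**Figure D4:**
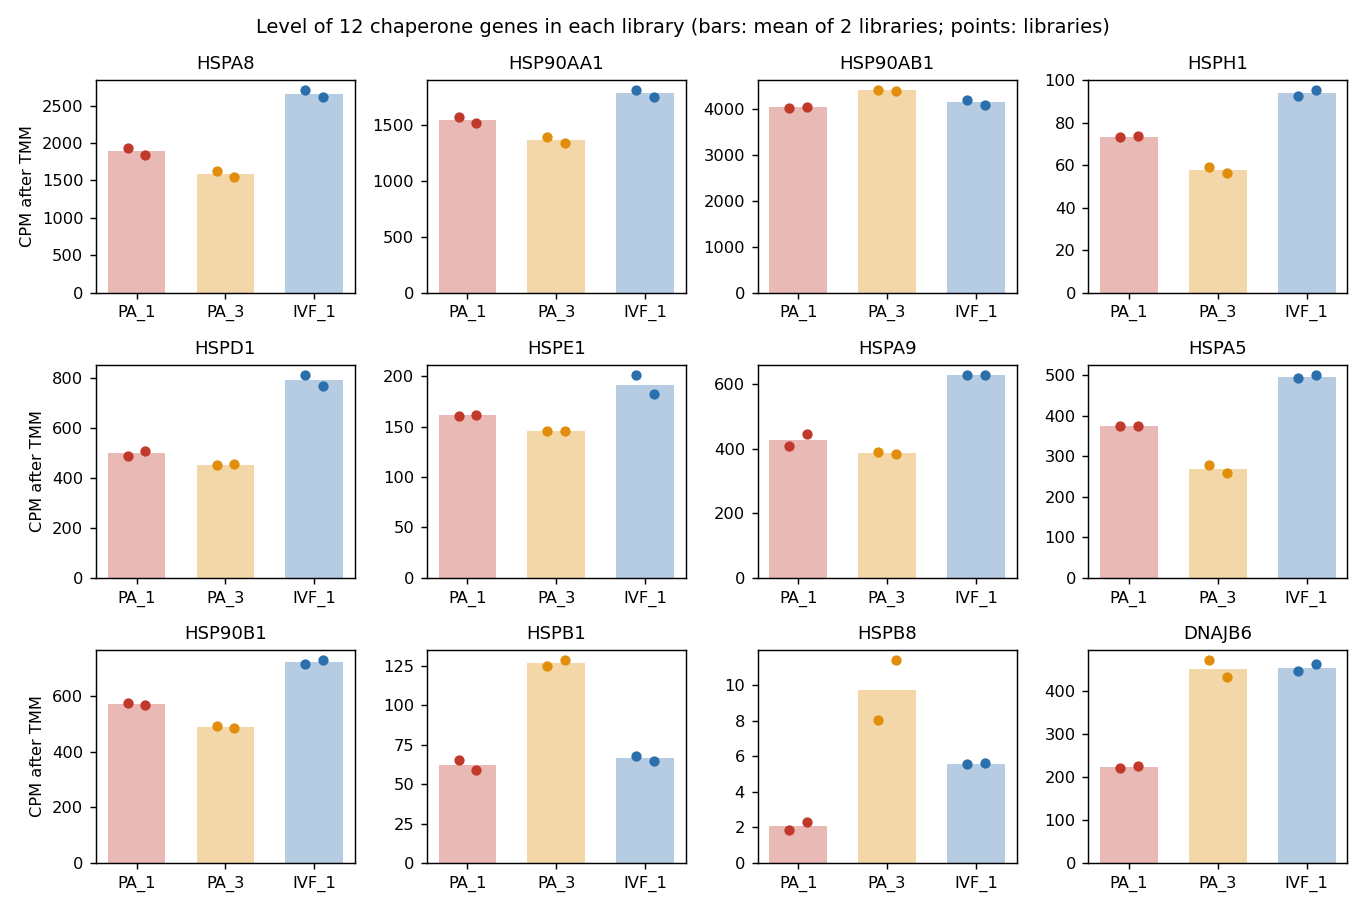
CPM after TMM scaling of 12 chaperone genes, with bars for the mean of 2 libraries and points for libraries. HSPA8, HSP90AA1, HSPH1, HSPD1, HSPE1, HSPA9, HSPA5 and HSP90B1 run in the order IVF_1, PA_1, PA_3 from high to low, while HSPB1 and HSPB8 were highest in PA_3 and DNAJB6 was lowest in PA_1.

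The HSPA4 row, named after another HSP110 exchange factor, fell to 436 and 474 CPM in PA_1 and 413 and 397 CPM in PA_3, against 643 and 625 CPM in IVF_1 (-0.48 and -0.65, adjusted p = 3e-05 and 4.4e-07). The table's description of that row names ZCCHC10, a different gene, so the counts may not be those of HSPA4 alone. HSPBP1, an exchange factor of cytosolic HSP70, fell too (-0.33 and -0.49, adjusted p = 0.0065 and 1.6e-04). HSPA14, a ribosome-associated HSP70, passed in PA_3 (-0.35, adjusted p = 0.0042) and stood at -0.23 in PA_1 (adjusted p = 0.06). In PA_1 it passed with the replicate number as a block (0.03) and with no low-count filter (0.012). Its PA_1 libraries had 128 and 163 CPM, against 170 and 171 CPM in IVF_1, and its fold change was -0.399 without replicate 2 of PA_1. Between the PA lines it did not pass (adjusted p = 0.33), at 0.12 with all libraries and 0.281 without replicate 1 of PA_1.

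The smaller of these calls were lost in several runs that left out 1 library or changed the fit. HSP90AA1 kept log2 fold changes of -0.179 and -0.234 in PA_1 against IVF_1 without replicate 1 and replicate 2 of IVF_1. Without replicate 1 of IVF_1 the PA_1 calls of HSP90AA1 and HSPBP1 were lost (adjusted p = 0.19 and 0.17), and without replicate 2 of IVF_1 or in a fit of PA_1 and IVF_1 alone that of HSP90AA1 was (0.078 and 0.056). In PA_1 against PA_3, HSP90AA1 was called at 0.18 (adjusted p = 0.033) but lost the call without replicate 1 of PA_1 (0.058), replicate 1 of PA_3 (0.099), replicate 2 of PA_3 (0.26) or either IVF_1 library (0.07 each). It was also lost with the replicate block (0.076) and in a fit of the PA lines alone (0.067). HSPA8 lost its call between the PA lines without replicate 2 of PA_3 (adjusted p = 0.11).

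Stress-inducible HSP70 genes stood low in all lines or outside the member rule. HSPA6 had 0.983 and 0.982 CPM in PA_1, 0.798 and 1.07 CPM in PA_3, and 1.93 and 2.29 CPM in IVF_1. It was called lower in both PA lines (-1.1 and -1.17, adjusted p = 0.014 and 0.0051), at between 18 and 35 counts per library. Its PA_1 call did not hold without replicate 2 of IVF_1 (adjusted p = 0.11), and its PA_3 call without that library (0.054) or replicate 1 of PA_3 (0.056). DESeq2 called neither (0.13 in PA_1 and 0.067 in PA_3). An unnamed row with 90 counts overlaps HSPA6, with 161 counts, on the same strand over 14996 bases. That row was at -0.89 in PA_1 and -1.17 in PA_3 against IVF_1 (adjusted p = 0.12 and 0.031). Reads shared between the overlapping rows cannot be assigned here. HSPA1L ranged from 0.327 to 0.838 CPM and passed in no comparison. Its span is crossed on the opposite strand by an unlabelled row that a gene ID table names HSP70.2, with 10413 counts to the 69 of HSPA1L.

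That HSP70.2 row, which lies in the MHC region on chromosome 7 (23914603 to 23928196, Sscrofa11.1) and carries the name of the inducible pig HSP70, had 52.6 and 38.0 CPM in PA_1, 102 and 113 CPM in PA_3, and 91.7 and 82.3 CPM in IVF_1. It was lower in PA_1 than in IVF_1 (-0.93, SE 0.13, adjusted p = 2.8e-04) and lower in PA_1 than in PA_3 (-1.23, adjusted p = 2.1e-05), and did not pass in PA_3 against IVF_1 (0.30, adjusted p = 0.059). HSPA12A and HSPA12B, divergent HSP70 relatives, were highest in PA_3. HSPA12A had 14.3 and 14.9 CPM in PA_1, 26.2 and 23.8 CPM in PA_3, and 13.1 and 16.3 CPM in IVF_1 (0.77 in PA_3 against IVF_1, adjusted p = 5.9e-05). HSPA12B was lower in PA_1 than in PA_3 (-0.75, adjusted p = 0.0015; adjusted p = 0.053 without replicate 2 of PA_3). In PA_3 against IVF_1 it did not pass (0.37, adjusted p = 0.066), but did in a fit of those lines alone (0.031) and without replicate 1 of PA_1 (0.028), replicate 2 of PA_1 (0.035) or replicate 1 of PA_3 (0.032).

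The small heat shock proteins, which hold unfolded proteins without ATP, included genes called higher in PA_3. HSPB1 (chromosome 3, 10037936 to 10039915), which also binds actin, had 65.4 and 58.8 CPM in PA_1, 125 and 129 CPM in PA_3, and 68.0 and 64.7 CPM in IVF_1. PA_3 stood apart from both other lines, at 0.94 above IVF_1 (SE 0.076, adjusted p = 4e-08), and PA_1 was at -1.03 against PA_3 (SE 0.075, adjusted p = 1.8e-08). PA_1 and IVF_1 overlapped and did not pass (-0.09, adjusted p = 0.39).

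HSPB8, which works with the co-chaperone BAG3 in selective autophagy, was the member called in opposite directions in the PA lines. It had 1.83 and 2.29 CPM in PA_1, 8.06 and 11.4 CPM in PA_3, and 5.56 and 5.63 CPM in IVF_1. The log2 fold change was -1.47 in PA_1 (SE 0.23, adjusted p = 1.2e-04) and 0.80 in PA_3 (SE 0.18, adjusted p = 0.0016) against IVF_1, and -2.27 in PA_1 against PA_3 (adjusted p = 2e-07). The PA_3 call was lost when replicate 2 of PA_3 was left out (0.53, adjusted p = 0.067). HSPB6, a small heat shock protein of muscle, had 4.41 and 3.87 CPM in PA_1, 7.47 and 5.86 CPM in PA_3, and 3.44 and 3.53 CPM in IVF_1 (0.93 in PA_3 against IVF_1, adjusted p = 6.8e-04). It was lower in PA_1 than in PA_3 (-0.67, adjusted p = 0.0062), a call lost without replicate 1 of PA_3 (0.12) and under DESeq2 (0.066).

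Among the cytosolic J-domain genes, DNAJB6, a suppressor of protein aggregation, set PA_1 apart. It had 222 and 227 CPM in PA_1, 472 and 432 CPM in PA_3, and 447 and 462 CPM in IVF_1. PA_3 and IVF_1 overlapped (-0.01, adjusted p = 0.92), and PA_1 lay below both (-1.02 against IVF_1, SE 0.066, adjusted p = 7.9e-09; -1.01 against PA_3, adjusted p = 3.9e-09). Its span on chromosome 18 overlaps that of UBE3C on the same strand over 88727 bases. UBE3C stood at 0.24 in PA_1 against IVF_1 (adjusted p = 0.02), a call lost without either IVF_1 library or replicate 1 of PA_1. In PA_1 against PA_3 UBE3C was at -0.14 (adjusted p = 0.15).

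DNAJB13, a J protein of cilia and sperm tails, had the largest fold change of any member. Its levels were 0.814 and 0.709 CPM in PA_1, 5.71 and 4.61 CPM in PA_3, and 6.22 and 5.69 CPM in IVF_1, giving -2.94 against IVF_1 (SE 0.25, adjusted p = 1.6e-07) and -2.73 against PA_3 (adjusted p = 1.6e-07). The 484 counts of DNAJB13 lie within a span that the opposite-strand gene UCP2, with 10042 counts, overlaps over 12931 bases. UCP2 moved the other way in PA_1 against IVF_1 (0.68, adjusted p = 9.3e-06) and the same way in PA_1 against PA_3 (-0.33, adjusted p = 0.0026). The latter call was lost without replicate 2 of PA_3 (log2 fold change -0.267).

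DNAJA1, the most abundant J-domain gene at 393 TPM and a partner of HSPA8, had 501 and 503 CPM in PA_1, 470 and 416 CPM in PA_3, and 539 and 543 CPM in IVF_1. It passed in PA_3 against IVF_1 (-0.29, adjusted p = 0.0019) and not in PA_1 against IVF_1 (-0.11, adjusted p = 0.24). DNAJB1, the classic heat-inducible partner of HSP70, had 49.8 and 45.5 CPM in PA_1, 42.8 and 40.1 CPM in PA_3, and 51.6 and 50.7 CPM in IVF_1 (-0.10 in PA_1, adjusted p = 0.41; -0.30 in PA_3, adjusted p = 0.0066). Without replicate 2 of PA_3 both PA_3 calls were lost (adjusted p = 0.07 for DNAJA1 and 0.082 for DNAJB1), and that of DNAJB1 also without replicate 1 of IVF_1 (0.067). DNAJA1 was called higher in PA_1 than in PA_3 (0.18, adjusted p = 0.043), and lost the call without replicate 2 of PA_3 (0.47) or either IVF_1 library (0.086 and 0.085), with the replicate block (0.065) and in a fit of the PA lines alone (0.083). The ratio of HSPA8 to DNAJA1 in TPM was 3.85 and 3.64 in PA_1 and 3.44 and 3.71 in PA_3, against 5.005 and 4.79 in IVF_1, so the HSP70 was lower relative to this partner in both PA lines.

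DNAJC7, which bridges HSP70 and HSP90, fell to 110 and 118 CPM in PA_1 and 98.9 and 94.0 CPM in PA_3, against 137 and 141 CPM in IVF_1 (-0.29 and -0.53, adjusted p = 0.0049 and 1.1e-05). Its PA_1 call did not survive removal of replicate 2 of IVF_1 (0.071). DNAJC2, a ribosome-bound J protein, was called lower in PA_1 (-0.27, adjusted p = 0.024) and in PA_3 (-0.37, adjusted p = 0.0018). Its PA_1 call was lost without replicate 1 of PA_1 (0.14), replicate 1 of IVF_1 (0.16) or replicate 2 of IVF_1 (0.099).

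Other members called in PA_3 and not in PA_1 against IVF_1 were DNAJC9, a histone chaperone (-0.49), DNAJC5, the cysteine string protein of vesicles (-0.50), DNAJC13 of endosomes (-0.35), DNAJC6, which uncoats clathrin vesicles (-0.61), and DNAJC27 (-0.41). DNAJC9 had 64.7 and 65.9 CPM in PA_1, 52.4 and 50.03 CPM in PA_3, and 72.6 and 71.6 CPM in IVF_1, and was also higher in PA_1 than in PA_3 (0.35, adjusted p = 0.0015). DNAJC6 and DNAJC27 lost the call without any 1 of several libraries: adjusted p was 0.097 for DNAJC6 and 0.079 for DNAJC27 without replicate 1 of PA_3, and 0.062 for DNAJC6 and 0.14 for DNAJC27 when replicate 2 was the one left out. Without replicate 2 of IVF_1, adjusted p was 0.17 for DNAJC6, 0.081 for DNAJC27 and 0.11 for DNAJC13, and without replicate 1 of IVF_1 it was 0.18 for DNAJC27. Under DESeq2 it was 0.11 for DNAJC6 and 0.12 for DNAJC27. In PA_1 against IVF_1, DNAJC27 passed without replicate 2 of PA_1 (-0.458, adjusted p = 0.012). Between the PA lines, DNAJC13 (0.33), DNAJC6 (0.65), DNAJC17 (0.43) and DNAJC7 (0.24) were called higher in PA_1, and all 4 lost the call without replicate 2 of PA_3 (adjusted p = 0.058, 0.063, 0.058 and 0.14). DNAJC6 also lost it without replicate 2 of PA_1 or replicate 1 of PA_3, and DNAJC17 without replicate 1 of PA_3. Under DESeq2 adjusted p was 0.1 for DNAJC6 and 0.091 for DNAJC17. RMDN3, with 931 counts to 1366 for DNAJC17, overlaps DNAJC17 on the same strand over 42399 bases. RMDN3 was also higher in PA_1 than in PA_3 (0.44, adjusted p = 0.042). GCHFR, with 4367 counts, overlaps DNAJC17 on the opposite strand and was at 0.02 in that comparison (adjusted p = 0.89).

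Of the 34 J-domain genes, 2 (5.88%) were higher in each PA line than in IVF_1. Of all genes, 15.3% were higher in PA_1 and 25.9% in PA_3. The J-domain genes were DNAJB4 and DNAJB5 in PA_1, and DNAJB4 and DNAJA4 in PA_3. DNAJB5 did not pass in PA_3 against IVF_1 (0.20, adjusted p = 0.11), but did in a fit of those lines alone (0.043). DNAJB5 had 39.4 and 34.4 CPM in PA_1, 29.1 and 26.6 CPM in PA_3, and 23.2 and 25.2 CPM in IVF_1 (0.61 in PA_1 against IVF_1, adjusted p = 2.6e-04). It was also higher in PA_1 than in PA_3 (0.41, adjusted p = 0.0036), a call lost without replicate 2 of PA_3 (0.065). VCP, with 67994 counts to 3955 for DNAJB5, overlaps it on the opposite strand. VCP stood at -0.22 in PA_1 against IVF_1 (adjusted p = 0.0096), a call lost without replicate 1 (-0.2) or replicate 2 (-0.253) of IVF_1. In PA_1 against PA_3 VCP was called higher, as DNAJB5 was (0.16, adjusted p = 0.049, and 0.093 in a fit of the PA lines alone). DNAJB4 had 33.1 and 32.8 CPM in PA_1, 31.7 and 34.4 CPM in PA_3, and 25.3 and 26.4 CPM in IVF_1 (0.35 and 0.36, adjusted p = 0.0096 and 0.0047). Without replicate 1 of IVF_1 both DNAJB4 calls were lost (0.12 and 0.068), the PA_1 call also without replicate 2 of IVF_1 (0.058) and the PA_3 call also without replicate 2 of PA_3 (0.068).

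DNAJA4 was higher in PA_3, with 9.77 and 9.0 CPM in PA_1, 13.3 and 11.7 CPM in PA_3, and 6.10 and 8.18 CPM in IVF_1 (0.81 in PA_3 against IVF_1, adjusted p = 3e-04). It was lower in PA_1 than in PA_3 (-0.41, adjusted p = 0.029), which did not hold without replicate 2 of PA_1 (0.06), replicate 1 of PA_3 (0.21) or replicate 2 of PA_3 (0.05), or under DESeq2 (0.15). DNAJA2, DNAJB2, DNAJC8, DNAJC24 and HSPBAP1 completed the cytosolic set and passed in no comparison with all libraries. When replicate 1 of PA_1 was left out, DNAJA2 and DNAJC24 passed as higher in PA_1 than in IVF_1 (adjusted p = 0.0084 and 0.035) and than in PA_3 (0.047 and 0.0093). DNAJB2 passed as higher in PA_1 than in IVF_1 without replicate 2 of PA_1 (0.0043), and as higher in PA_3 than in IVF_1 in a fit of those lines alone (0.028) or without replicate 1 or 2 of PA_1 (0.027 and 0.028). Of the 5 genes, DNAJC8, a splicing-associated J protein, was the most abundant at 214 TPM, with log2 fold changes of -0.08 in PA_1 and -0.10 in PA_3 against IVF_1.

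In the mitochondrion, 4 of the 8 genes, HSPD1, HSPE1, HSPA9 and DNAJC11, were lower in PA_1 and in PA_3 than in IVF_1. HSPD1 (HSP60), the chaperonin barrel, had 488 and 508 CPM in PA_1, 451 and 454 CPM in PA_3, and 810 and 766 CPM in IVF_1. PA_1 and PA_3 lay below IVF_1 by a log2 fold change of -0.66 (SE 0.063, adjusted p = 6.7e-07) and -0.80 (SE 0.063, adjusted p = 2.4e-08). HSPA9 (mortalin), the matrix HSP70 of protein import, had 409.5 and 446 CPM in PA_1, 391 and 385 CPM in PA_3, and 629 and 629 CPM in IVF_1 (-0.56 and -0.70, adjusted p = 5.4e-06 and 1.6e-07). Neither gene passed between the PA lines (0.14 each, adjusted p = 0.088 and 0.096), though both did without replicate 1 of PA_1 (0.034 and 0.011).

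HSPE1 (HSP10), the lid of the HSPD1 barrel, had smaller log2 fold changes than its partner. Its levels were 161 and 162 CPM in PA_1, 145 and 145 CPM in PA_3, and 201 and 182 CPM in IVF_1 (-0.25 and -0.40, adjusted p = 0.011 and 1.3e-04). Without replicate 1 of IVF_1 the PA_1 call was lost (adjusted p = 0.23). HSPD1 (101360094 to 101373527) and HSPE1 (101373788 to 101376162) lie head to head on chromosome 15 with 260 bases between their annotated spans. The TPM ratio of HSPE1 to HSPD1 was 1.88 and 1.82 in PA_1 and 1.83 and 1.86 in PA_3, against 1.43 and 1.37 in IVF_1. As a ratio of counts it was 0.329 and 0.319 in PA_1 and 0.322 and 0.320 in PA_3, against 0.248 and 0.238 in IVF_1. The PA lines overlapped each other and did not overlap IVF_1 on either scale, and these ratios do not depend on library scaling.

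DNAJC11, a protein of the cristae-organising complex, fell to 58.7 and 55.0 CPM in PA_1 and 55.7 and 52.3 CPM in PA_3, against 80.3 and 77.8 CPM in IVF_1 (-0.47 and -0.55, adjusted p = 2.1e-04 and 1.9e-05). DNAJA3 (TID1), the J-domain partner of HSPA9, had 54.8 and 49.1 CPM in PA_1, 40.6 and 45.3 CPM in PA_3, and 61.1 and 59.7 CPM in IVF_1. It passed in PA_3 (-0.49, adjusted p = 1.9e-04) and not in PA_1 (-0.21, adjusted p = 0.071, which was 0.0085 without replicate 1 of PA_1), and the PA lines differed (0.28, adjusted p = 0.018), though not without replicate 1 of PA_1 (0.08) or replicate 1 of PA_3 (0.21). DNAJC19, of the inner membrane import motor, was called in PA_3 only against IVF_1 (-0.38, adjusted p = 0.0046; 0.1 without replicate 1 of IVF_1). It was higher in PA_1 than in PA_3 (0.36, adjusted p = 0.0082; 0.07 without replicate 2 of PA_3). DNAJC15, its paralogue, and DNAJC28 passed in no comparison, with DNAJC15 between 15.02 and 19.7 CPM in the 6 libraries. DNAJC15 passed as lower in PA_1 than in PA_3 without replicate 2 of PA_1 (-0.353, adjusted p = 0.012).

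In the endoplasmic reticulum, the main luminal HSP70 and HSP90 were lower in both PA lines. HSPA5 (BiP), which also keeps the sensors of the unfolded protein response inactive, had 374 and 375 CPM in PA_1, 279 and 258 CPM in PA_3, and 492 and 500 CPM in IVF_1. The lines did not overlap, with log2 fold changes of -0.40 in PA_1 (SE 0.063, adjusted p = 1.4e-04) and -0.88 in PA_3 (SE 0.064, adjusted p = 9.2e-09) against IVF_1, and 0.48 in PA_1 against PA_3 (adjusted p = 1.8e-05). HSP90B1 (GRP94), its HSP90 partner, had 576 and 568 CPM in PA_1, 494 and 484 CPM in PA_3, and 717 and 731 CPM in IVF_1 (-0.34 and -0.56, adjusted p = 4.4e-04 and 9.9e-07). It was higher in PA_1 than in PA_3 (0.22, adjusted p = 0.0078), but not without replicate 2 of PA_3 (0.092). The TPM ratio of HSP90B1 to HSPA5 was 1.09 and 1.07 in PA_1 and 1.25 and 1.33 in PA_3, against 1.03 and 1.03 in IVF_1, highest in PA_3.

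Most J-domain genes of this compartment did not pass. DNAJC10 (ERdj5), a disulfide reductase, was called in PA_3 against IVF_1 (-0.24, adjusted p = 0.0076), and lost the call without replicate 2 of PA_3 (0.11) or replicate 1 of IVF_1 (0.095). HSPA13, an HSP70-like ATPase, had 50.7 and 67.0 CPM in PA_1, 46.9 and 42.1 CPM in PA_3, and 57.5 and 57.1 CPM in IVF_1 (-0.36 in PA_3 against IVF_1, adjusted p = 0.012). Leaving out replicate 2 of PA_3, replicate 1 of IVF_1 or replicate 2 of IVF_1 ended that call (0.11, 0.065 and 0.053). HSPA13 was called higher in PA_1 than in PA_3 (0.39, adjusted p = 0.01), and this was lost without replicate 2 of PA_1 (0.057) or of PA_3 (0.11).

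DNAJB9 (ERdj4) and DNAJC3 (p58IPK), both classic targets of the unfolded protein response, passed in no comparison with all libraries. DNAJB9 had 4.48 and 7.42 CPM in PA_1, 6.04 and 6.66 CPM in PA_3, and 5.62 and 4.19 CPM in IVF_1 (0.23 in PA_1, adjusted p = 0.47; 0.37 in PA_3, adjusted p = 0.18), with overlap between PA_1 and IVF_1. DNAJC3 had 16.2 and 16.9 CPM in PA_1, 20.3 and 19.4 CPM in PA_3, and 18.1 and 15.8 CPM in IVF_1 (-0.04 and 0.23, adjusted p = 0.81 and 0.1). Leaving out replicate 1 of PA_1 brought DNAJB9 to 0.59 in PA_1 against IVF_1 (adjusted p = 0.021) and called it (0.05) and DNAJC3 (0.048) higher in PA_3 than in IVF_1, and DNAJC3 was also called in a fit of those lines alone (0.048). Leaving out replicate 2 of PA_1 called both lower in PA_1 than in PA_3 (0.038 and 0.048). Likewise DNAJB12, DNAJB14, DNAJC1, DNAJC14, DNAJC16 and DNAJC18 passed in no comparison, with log2 fold changes against IVF_1 between -0.21 and 0.17, except that DNAJB14 passed as lower in PA_1 than in PA_3 without replicate 2 of PA_1 (adjusted p = 0.019).

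The 3 genes placed in no compartment were not called lower in either PA line against IVF_1. HSPB11, a part of intraflagellar transport (IFT25), had 11.4 and 11.5 CPM in PA_1, 14.6 and 14.7 CPM in PA_3, and 10.1 and 9.49 CPM in IVF_1 (0.58 in PA_3 against IVF_1, adjusted p = 8.1e-04). HSPG2, which shares the letters HSP but encodes the matrix proteoglycan perlecan, was also higher in PA_3 than in IVF_1 (0.35, adjusted p = 0.0015). PA_1 was below PA_3 for both (-0.36 and -0.24, adjusted p = 0.021 and 0.026), calls that were lost when replicate 2 of PA_3 was left out (0.12 and 0.34). HSPB11 lost it also without replicate 1 of PA_3 (0.095), and HSPG2 without replicate 2 of PA_1 (0.091), and further HSPB11 under DESeq2 (0.14) and HSPG2 in a fit of the PA lines alone (0.052). DNAJC22 passed in no comparison. YIPF1, with 4307 counts to 1592 for HSPB11, overlaps HSPB11 on the same strand over 33475 bases. YIPF1 was at 0.17 in PA_3 against IVF_1 (adjusted p = 0.12) and at -0.19 in PA_1 against PA_3 (adjusted p = 0.11).

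Other genes of the chaperone network were counted from lists of named genes, chosen with earlier results of these data known. Most genes named from a list were taken for a small adjusted p, so they need not be typical of it. Their counts stand beside the shares of all genes tested, 16.1% lower and 15.3% higher in PA_1 and 26.2% lower and 25.9% higher in PA_3 against IVF_1, and 17.8% higher and 19.0% lower in PA_1 against PA_3. Among 22 heat shock factors and co-chaperones, 11 were lower and 2 higher in PA_1, and 12 lower and 2 higher in PA_3, against IVF_1, with list medians of -0.18 and -0.22. As shares that is 50% and 9.09% in PA_1, and 54.5% and 9.09% in PA_3. Without replicate 1 or replicate 2 of IVF_1, 4 and 7 of them were lower in PA_1, and none was higher. The number higher in PA_1 was 1 without replicate 2 of PA_1 and under DESeq2, and the number higher in PA_3 was 1 without replicate 2 of IVF_1. CDC37, which hands kinases to HSP90, stood at -0.40 and -0.67 (adjusted p = 3.5e-04 and 7.3e-07), and FKBP4, an HSP90 co-chaperone of steroid receptors, at -0.37 and -0.71 (adjusted p = 4.8e-04 and 2e-07). Between the PA lines, 6 were higher and 4 lower in PA_1, with 3 higher when replicate 1 of PA_3 or either IVF_1 library was left out or only the PA lines were fitted and 2 lower without replicate 2 of PA_3. HSF2, a developmental heat shock factor, had 32.4 and 38.1 CPM in PA_1, against 15.8 and 15.8 CPM in PA_3 (1.15, adjusted p = 2.9e-07). HSF1 was at -0.31 in PA_1 against PA_3 (adjusted p = 0.0056), a call lost without replicate 2 of PA_3 (log2 fold change -0.228). Against IVF_1, HSF1 was at -0.35 in PA_1 (adjusted p = 0.0031) and -0.04 in PA_3 (adjusted p = 0.68). HSF2 was at 0.32 in PA_1 (adjusted p = 0.026, and 0.077 under DESeq2) and -0.83 in PA_3 (adjusted p = 1.1e-05) against IVF_1. Without replicate 1 of IVF_1 both PA_1 calls were lost (log2 fold changes -0.286 and 0.26). That of HSF2 was also lost without replicate 2 of IVF_1 or of PA_1.

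The chaperonin CCT, which folds actin and tubulin, had 5 of 8 subunit genes (62.5%) lower in PA_1 and 7 of 8 (87.5%) in PA_3 against IVF_1, with 0 higher in each and medians of -0.20 and -0.25. Without replicate 1 of IVF_1 these counts were 2 and 3, and without replicate 2 of IVF_1 the PA_1 count was 3. CCT6A was at -0.43 and -0.50 (adjusted p = 2.3e-04 and 2.6e-05). The subunit gene CCT3 was called higher in PA_1 than in PA_3 (0.16, adjusted p = 0.049), and adjusted p was 0.22 and 0.19 without replicate 1 and replicate 2 of PA_3 and 0.097 without either IVF_1 library. It was 0.11 with the replicate block, 0.096 with no low-count filter and 0.09 in a fit of the PA lines alone.

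Of 23 endoplasmic reticulum partners, 12 (52.2%) were lower and 0 higher in PA_1, and 10 (43.5%) lower and 2 (8.70%) higher in PA_3, against IVF_1, with medians of -0.27 and -0.18. The number lower in PA_1 was 6 without replicate 1 of IVF_1, and without that library or replicate 2 of PA_3, or under DESeq2, the number higher in PA_3 was 1. They included CANX, a lectin chaperone (-0.43 and -0.62, adjusted p = 8.9e-05 and 7.2e-07), and HYOU1, an HSP110 of the lumen (-0.31 and -0.53, adjusted p = 0.0018 and 4.6e-06). CALR, the soluble lectin chaperone, was at -0.27 and -0.60 (adjusted p = 0.0051 and 1.2e-06), and its PA_1 call was not kept without replicate 1 of IVF_1 (0.093). In PA_1 against PA_3, 7 of the 23 were higher and 5 lower, counts that were 3 and 5 without replicate 1 of PA_3 and 1 and 1 without replicate 2 of PA_3.

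Of 14 mitochondrial partners, 4 (28.6%) were lower and 0 higher in PA_1, and in PA_3 3 (21.4%) were lower and 6 (42.9%) higher, against IVF_1, with medians of -0.15 and 0.02. Leaving out replicate 1 of PA_1 gave 7 lower in PA_1, leaving out replicate 2 of PA_1 gave 1 higher, and leaving out replicate 1 of IVF_1 gave 2 lower in PA_1 and 1 in PA_3. The number higher in PA_3 was 1 with replicate 2 of IVF_1 left out, and 2 with replicate 2 of PA_3 left out. TIMM44, which tethers HSPA9 to the import channel, was lower in both lines (-0.43 and -0.57, adjusted p = 6.5e-04 and 1.8e-05). GRPEL1, an exchange factor of HSPA9, was at -0.40 and -0.41 (adjusted p = 0.01 and 0.0045). Both calls were lost without replicate 1 of IVF_1 (log2 fold changes -0.288 and -0.301). GRPEL2, from the same list, was at -0.03 in PA_1 (adjusted p = 0.81) and called higher in PA_3 (0.28, adjusted p = 0.0095). TRAP1, the mitochondrial HSP90, was higher in PA_3 than in IVF_1 (0.43, adjusted p = 1e-04) and not called in PA_1 (0.17, adjusted p = 0.077). PAM16, another part of the import motor, was higher in PA_3 than in IVF_1 (0.47, adjusted p = 0.004, which was 0.061 without replicate 2 of IVF_1) and lower in PA_1 than in PA_3 (-0.68, adjusted p = 2.4e-04). In PA_1 against PA_3, 5 of the 14 were lower and 0 higher, with 3 lower without replicate 2 of PA_3.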

How the data were processed

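Per the labels, poly(A) RNA was captured with oligo(dT), and the libraries are stranded and paired-end. Per the submitters' processing notes, reads were trimmed with cutadapt 2.8 and aligned with STAR 2.7.1a to Sscrofa11.1. Which gene counter, annotation and strand setting were used is not given in the sources used here. Raw read counts per gene were deposited by the authors. In addition they deposited TPM, in which counts are divided by gene length and brought to the same sum in every library. The 54 columns of other samples were not used. Symbols are those of the table; partner genes with none were named by NCBI ID (1420 rows) or gene ID (167 rows).

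Counts were tested with edgeR 4.0.16 in R 4.3.3 (TMM scaling, filterByExpr by line, robust glmQLFit, glmQLFTest, two-sided), with 1 coefficient per line over all 6 libraries, 3 residual degrees of freedom and a biological coefficient of variation of 6.11%. The test was also run on simulated data with 1 common spread for all genes and lines. The outcome is not given here, so that run does not vouch for the calls. Replicate libraries differed by more than sampling noise in every line, with chi-square per degree of freedom of 11.5 in PA_1, 4.27 in PA_3 and 2.78 in IVF_1. The main fit shares 1 spread among the lines. It called 7920 genes in PA_3 against IVF_1 and 4766 in PA_1 against IVF_1. Fits of only the lines compared called 9021 and 4276. DESeq2 1.42.0 was an alternative. Members, lists and rules were chosen with earlier results of these data known. The naming rule takes 22 principal chaperones, of which HSPA1A and HSPA1B are not analysed here and HSPA2 and DNAJB11 no symbol in the table, the 5 largest called folds per direction and comparison at 1 CPM or more, the 5 highest TPM, and members called in opposite directions; other members are named to account for all 57. Of the members, 12 overlap a gene with more counts than their own, and reads shared between overlapping genes cannot be assigned from the table. Sequence features of the members are not analysed here.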

Additional observations from a re-analysis of the deposited data

How the results depend on the processing

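Leaving out 1 library at a time, members lower in PA_1 against IVF_1 numbered 13 to 19 and higher 1 to 6, lower in PA_3 against IVF_1 20 to 27 and higher 6 to 13, and higher in PA_1 against PA_3 4 to 21 and lower 6 to 12. The compartment medians then ran, for cytosol, mitochondrion and endoplasmic reticulum, from -0.146 to -0.086, -0.278 to -0.197 and -0.151 to -0.032 in PA_1 against IVF_1, from -0.304 to -0.131, -0.492 to -0.4 and -0.092 to -0.078 in PA_3 against IVF_1, and from 0.047 to 0.145, 0.128 to 0.162 and -0.015 to 0.145 in PA_1 against PA_3, where the last changed sign without replicate 2 of PA_1. The causes were not tested. Under median-of-ratios scaling, removal of mitochondrial genome genes, DESeq2, no low-count filter, only the libraries compared or the replicate block, each count of members stayed within 1.5 times and no median moved by more than the spread between replicates. With the replicate block, 18 members were lower and 2 higher in PA_1 against IVF_1, 26 and 8 in PA_3 against IVF_1, and 10 and 13 in PA_1 against PA_3. Deviations of same-numbered libraries correlated at -0.136 (PA lines), 0.0857 (PA_1 and IVF_1) and -0.0800 (PA_3 and IVF_1). These values do not show that the numbers pair the libraries. Whether libraries of different lines share a batch was not tested, and the labels do not state it. With the numbers of PA_3 crossed, chosen after seeing the data, 20 members were higher and 12 lower in PA_1 against PA_3. Of 2051 member values over these alternatives, 80 lost a call (65 of them without a library), 45 gained one, no called value changed sign and 58 uncalled ones did. Of the partner lists, the 6 factors and co-chaperones higher in PA_1 than in PA_3 became 3 with only the libraries compared, and lists with 1 or 2 calls lost 1 under DESeq2, the block or other settings. Changes in members with few counts, such as HSPA6 and HSPA1L, are limited by depth.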

Other observations

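Besides HSP70.2, 5 rows with no symbol in the table carry an NCBI or gene ID that names an HSP or DNAJ gene and had at least 60 counts; they were outside the member rule. HSPA2, an HSP70 best known from the testis, had 12.5 and 6.65 CPM in PA_1, 20.7 and 24.3 CPM in PA_3, and 7.98 and 7.002 CPM in IVF_1. It was higher in PA_3 than in IVF_1 (log2 fold change 1.59, SE 0.26, edgeR adjusted p = 0.0011) and lower in PA_1 than in PA_3 (-1.18, adjusted p = 0.0049), and the PA_1 libraries differed from each other more than those of the other lines. DNAJB11 (ERdj3), a luminal partner of HSPA5, had 49.7 and 49.9 CPM in PA_1, 47.5 and 43.6 CPM in PA_3, and 62.4 and 63.4 CPM in IVF_1, lower in both PA lines (-0.34 and -0.47, adjusted p = 0.0041 and 1.4e-04). DNAJC21, a factor of ribosome assembly, was lower in PA_1 than in IVF_1 (-0.24, adjusted p = 0.035), DNAJC30 was higher in PA_3 than in IVF_1 (0.50, adjusted p = 0.034), and DNAJC25 was higher in PA_1 than in PA_3 (0.44, adjusted p = 0.012). Leaving out replicate 2 of IVF_1 ended the PA_1 call of DNAJB11 (adjusted p = 0.052) and the calls of DNAJC21 (0.25) and DNAJC30 (0.31), and leaving out replicate 2 of PA_3 ended those of DNAJC25 (0.068), DNAJC30 (0.15) and DNAJC21 (0.057). Without replicate 1 of PA_3, DNAJC21, DNAJC25 and DNAJC30 were at 0.057, 0.067 and 0.072, and DNAJC21 also lost its call without replicate 1 of PA_1 (0.099) or of IVF_1 (0.11). DNAJC21 was also not called with the replicate block (0.054), in a fit of PA_1 and IVF_1 alone (0.074) or by DESeq2 (0.095), and DESeq2 called neither DNAJC30 (0.17) nor DNAJC25 (0.051). The calls of HSP70.2 and HSPA2 given above held in every alternative run.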
